A study of Rattus norvegicus with 4 samples.

Results

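The most abundant circular RNA of each of 2 host genes, Lifr and Crebrf, was lower in crushed than in sham-operated rat sciatic nerve. Circular RNAs (circRNAs) form when the splicing machinery links the end of an exon back to the start of the same or an earlier exon, and each was measured by the reads that cross this back-splice junction. All circRNAs whose host symbol was Lifr or Crebrf were taken, which gave 7 of the 4942 circRNAs listed, 2 of Lifr and 5 of Crebrf. Both hosts were selected on their junction reads in crush against sham libraries, where they were lower after crush, so this contrast is described here with values and no test. The name given to the set, circRNAs that fall after crush, held for the leading circRNA of each host. The minor circRNAs of both hosts had too few reads to give a direction.

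The rats were of the Sprague-Dawley strain, at postnatal week 6, and total RNA of sciatic nerve was sequenced in 2 libraries per group. In the crush group, the nerve was crushed over 3 mm with a forceps, 2 times for 15 s with 3 s between. In the sham group, the nerve was exposed and not crushed. Nerve was taken 24 h after surgery in both groups. In the crush group this was the crushed stretch with 1 mm of each nerve end. Sham nerve, which had no crushed stretch, is also listed with 1 mm of each nerve end. The labels do not tell whether replicates are different rats. Sham replicates 1 and 2 held 9018 and 8726 junction reads, and crush replicates 1 and 2 held 8250 and 9027. The files hold junction reads only, so the linear Lifr and Crebrf transcripts were not analysed here.

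Lifr encodes the receptor for leukemia inhibitory factor (LIF). The receptor pairs with the shared signal transducer gp130, and together they pass signals of LIF, ciliary neurotrophic factor and related cytokines to the JAK kinases and STAT3. Ciliary neurotrophic factor is stored in Schwann cells, and LIF is made in injured nerve, so this receptor is well known in nerve injury. Crebrf encodes the CREB3 regulatory factor, which restrains CREB3, a transcription factor held in the membrane of the endoplasmic reticulum and released by cleavage. The back-splices described here lie within these genes and their levels need not follow those of the messenger RNA.

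The upstream windows of both hosts are shown because their leading circRNAs were both lower after crush. They are the 250 bases before 1 transcript start per gene given by RefSeq in GRCr8, which is not the build of the circRNA coordinates, and the RefSeq models of both genes extend further upstream than this start. Both hosts matched an entry by symbol. The Lifr window lies at chr2:57963139-57963388 on the plus strand and the Crebrf window at chr10:16966431-16966680 on the minus strand, both printed 5′ to 3′. Capitals mark matches, on either strand, to CACGTG, TGACGTCA, TTCNNNGAA and CCAAT, with no overlap between the matches found here.
Lifr: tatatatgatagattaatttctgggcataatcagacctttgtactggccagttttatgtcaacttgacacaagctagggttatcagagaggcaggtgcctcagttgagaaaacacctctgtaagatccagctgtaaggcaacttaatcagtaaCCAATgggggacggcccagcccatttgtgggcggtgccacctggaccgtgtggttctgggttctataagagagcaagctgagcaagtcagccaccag
Crebrf: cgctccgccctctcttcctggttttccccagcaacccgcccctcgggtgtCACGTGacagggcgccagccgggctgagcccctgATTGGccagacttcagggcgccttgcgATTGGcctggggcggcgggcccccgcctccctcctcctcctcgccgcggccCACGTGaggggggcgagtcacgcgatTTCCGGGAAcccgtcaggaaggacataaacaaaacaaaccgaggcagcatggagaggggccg
The Lifr window held 1 match to CCAAT and 0 to the other motifs. The Crebrf window held 2 matches to CACGTG, 2 to CCAAT and 1 to TTCNNNGAA. Among 33469 windows of the same length, 5.59% held CACGTG, 7.67% TTCNNNGAA, 34.0% CCAAT and 1.59% TGACGTCA. The GC content was 48.0% for Lifr and 68.8% for Crebrf, against a median of 51.2% over all windows. These matches describe letters in a window, and no binding was measured.

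The leading Lifr circRNA was among the most abundant circRNAs of sham nerve. It was exonic, on the plus strand of chromosome 2 from 56451097 to 56456188 (ENSRNOG00000011696, coordinates of the files in Rnor_6.0), and its ends lie 5091 bases apart, a span that includes introns. It had 68 and 48 junction reads in sham replicates 1 and 2 and 7 and 14 in crush replicates 1 and 2. Both sham libraries were far above both crush libraries, and the groups did not overlap. Of 428 circRNAs with enough reads to test (at least 5 in at least 2 libraries), 37.1% had both crush libraries below both sham libraries in SRPBM, the deposited junction signal scaled to library size. By number of reads it ranked 8 and 9 among the circRNAs of the sham libraries, and 204 and 71 among those of the crush libraries.

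In SRPBM the leading Lifr circRNA stood at 4.37 ± 0.83 in sham and 0.672 ± 0.233 in crush nerve (SD, n = 2). The mean was 6.49-fold higher in sham than in crush nerve. The log2 change fitted by edgeR, crush minus sham, was -2.23 ± 0.49 (SE). The fit scales the libraries to one another by their circRNAs (TMM), and SRPBM by a library total, so the fold and the fitted change are on different scales. In the sham libraries the circRNA took 0.754% (95% interval 0.586% to 0.955%) and 0.550% (0.406% to 0.729%) of all junction reads. In the crush libraries it took 0.0848% (0.0341% to 0.175%) and 0.155% (0.0848% to 0.260%). The intervals of the crush libraries lay below those of both sham libraries. Lifr was chosen for its lower reads after crush, so this separation is no test. All these intervals are exact Clopper-Pearson intervals and cover counting error only.

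The other Lifr circRNA used the same upstream end and a downstream end further along the gene. It ran from 56451097 to 56461055, a span of 9958 bases, and was exonic. It had 3 reads in sham replicate 1 and was listed at 0 in the other libraries. The lowest count above 0 in the files was 2, so a circRNA listed at 0 was not reported in that library and may still have had a read. Summed over both circRNAs, Lifr had 71 and 48 reads in sham and 7 and 14 in crush nerve. In SRPBM the sum was 4.47 ± 0.99 in sham and 0.672 ± 0.233 in crush nerve, with a fitted log2 change of -2.28 ± 0.48. The leading circRNA held 95.8% (88.1% to 99.1%) and 100% (92.6% to 100%) of the Lifr reads in sham nerve. It held all 7 (59.0% to 100%) and all 14 (76.8% to 100%) in crush nerve. The listed Lifr reads were thus nearly all from 1 back-splice in every library, with wide intervals in crush nerve.

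**Figure D1:**
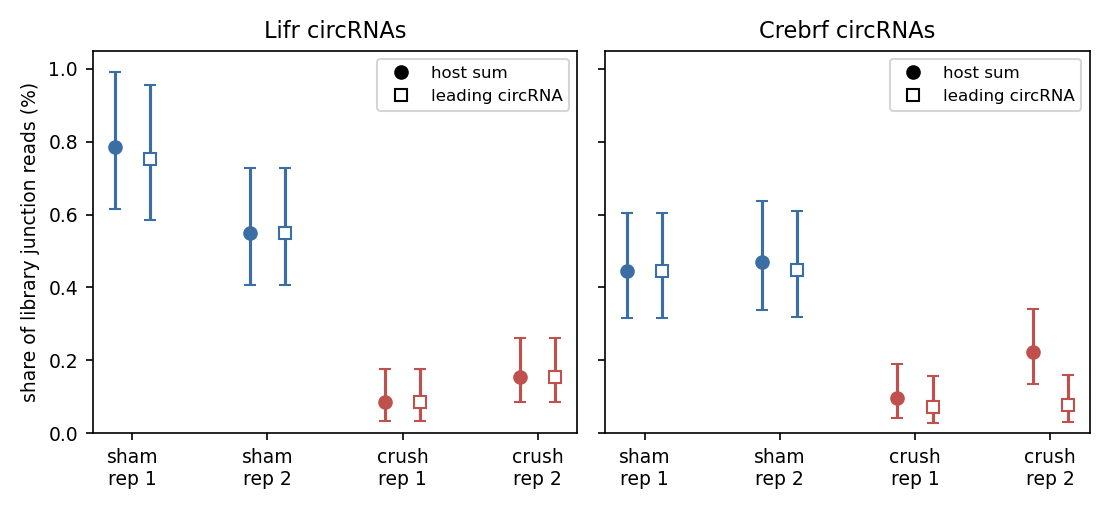
Share of each library's junction reads (y axis, percent) taken by the host sum (filled circles) and by the leading circRNA (open squares) of Lifr and Crebrf in the 2 sham and 2 crush libraries, with 95% exact intervals. The Lifr sum took 0.787% and 0.550% in sham and 0.0848% and 0.155% in crush nerve, and the leading Crebrf circRNA 0.444% and 0.447% against 0.0727% and 0.0775%.

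The leading Crebrf circRNA was lower after crush by a similar factor, and its replicates lay close together. It was exonic, on the minus strand of chromosome 10 from 16724062 to 16730140 (ENSRNOG00000020769), a span of 6078 bases. It had 40 and 39 reads in sham and 6 and 7 in crush nerve. The groups did not overlap, and within each group the replicates differed by 1 read. Of the 428 circRNAs tested, 37.1% likewise had both crush libraries below both sham libraries in SRPBM. In SRPBM it stood at 2.99 ± 0.11 in sham and 0.427 ± 0.012 in crush nerve (SD, n = 2), 7.01-fold higher in sham. Counting error alone is wider than these SDs, as the intervals below show, so the SDs are no measure of precision. The fitted log2 change was -2.37 ± 0.42 (SE). It ranked 14 in both sham libraries, and 245 and 212 in the crush libraries. Its share of all junction reads was 0.444% (0.317% to 0.604%) and 0.447% (0.318% to 0.610%) in sham against 0.0727% (0.0267% to 0.158%) and 0.0775% (0.0312% to 0.160%) in crush nerve. The fitted changes of the leading Lifr and Crebrf circRNAs differed by less than their standard errors.

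The 4 minor circRNAs of Crebrf had too few reads to give a direction. The exonic circRNA from 16724062 to 16725151, a span of 1089 bases, had 0 and 6 reads in crush and 0 and 2 in sham nerve. The exonic one from 16724062 to 16727861, a span of 3799 bases, had 2 reads in crush replicate 1 alone. The intronic one from 16724062 to 16731902, a span of 7840 bases, had 3 reads in crush replicate 2 alone. The exonic one from 16699071 to 16730140, a span of 31069 bases, had 4 reads in crush replicate 2 alone. In all, the minor circRNAs held 2 and 13 reads in crush and 0 and 2 in sham nerve, so most of them came from crush replicate 2. None passed the filter on low counts, and their single values rest on a few reads.

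**Figure D2:**
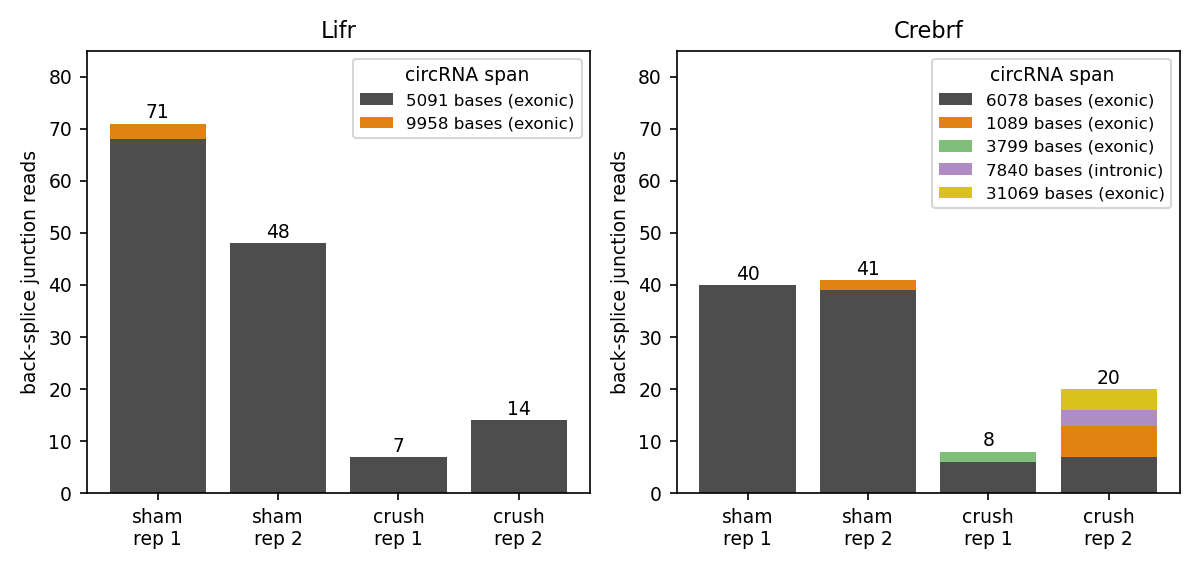
Back-splice junction reads (y axis) of each circRNA of Lifr and Crebrf in the 2 sham and 2 crush libraries, stacked and coloured by circRNA span, with the host sum above each bar. Lifr bars are nearly all of the 5091-base circRNA, while 13 of the 20 Crebrf reads of crush replicate 2 belong to minor circRNAs.

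The Crebrf back-splices shared ends. Of the 5, 4 used the downstream end of the leading circRNA, at 16724062, and differed in the upstream end. The circRNA of 31069 bases instead shared the upstream end of the leading circRNA, at 16730140, and reached further downstream. Reads through the shared downstream end numbered 40 and 41 in sham and 8 and 16 in crush nerve. Reads through the shared upstream end numbered 40 and 39 in sham and 6 and 11 in crush nerve. Both ends thus had fewer reads in the crush libraries, also with the minor circRNAs counted. No circRNA of another host overlapped any of the 7.

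**Figure D3:**
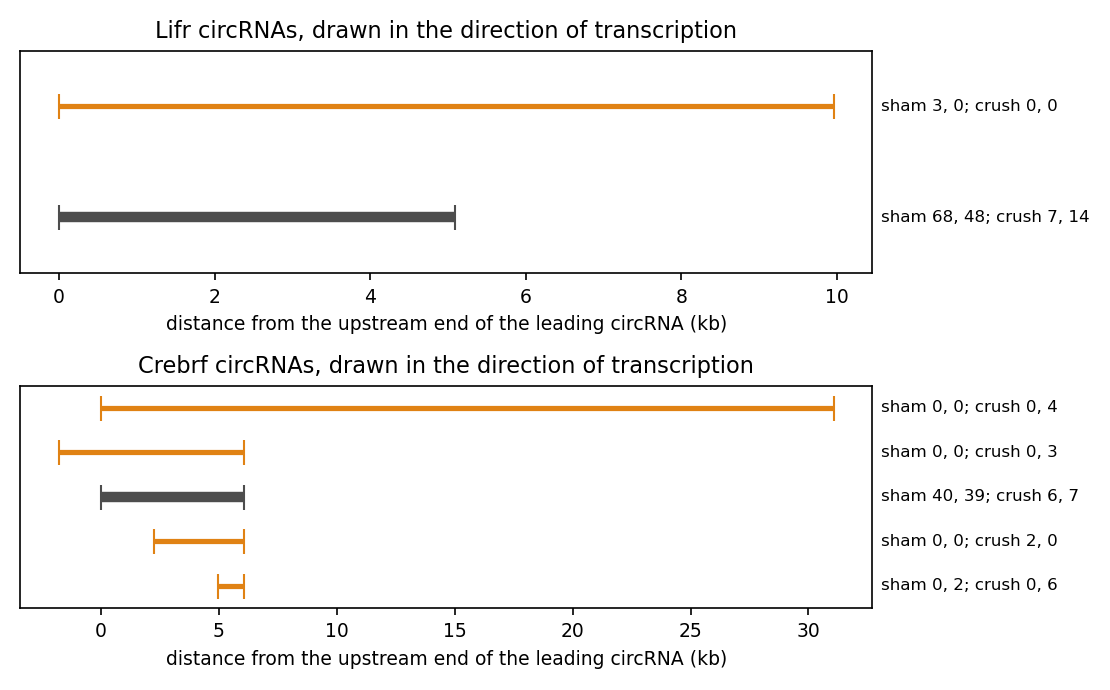
Map of the 2 Lifr and 5 Crebrf circRNAs, drawn to scale in the direction of transcription (x axis, distance in kb from the upstream end of the leading circRNA, which is the thick bar), with junction reads per library at the right. The 2 Lifr circRNAs start together, and 4 of the 5 Crebrf circRNAs end together.

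Summed over its circRNAs, Crebrf had 40 and 41 reads in sham and 8 and 20 in crush nerve. The crush libraries were both below the sham libraries, as they were for 35.9% of the 434 host genes tested, but crush replicate 2 held more than double the reads of crush replicate 1. In SRPBM the sum was 3.07 ± 0.22 in sham and 0.888 ± 0.436 in crush nerve, with a fitted log2 change of -1.33 ± 0.52. Without crush replicate 1 the change was -0.74, and without crush replicate 2 it was -1.88, so the size of the Crebrf sum depends on which crush library is used. The leading circRNA moved less, with -2.23 and -2.32 in the same settings. Over all host genes tested the median log2 change was 0.12, and 10 of 434 (2.3%) passed at an adjusted p under 0.05, 8 higher (1.84%) and 2 lower (0.461%) after crush (edgeR quasi-likelihood test, Benjamini-Hochberg). With library totals from the SRPBM values, 8 host genes were higher and 6 lower. Of the 428 circRNAs tested, 51 (11.9%) passed.

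**Figure D4:**
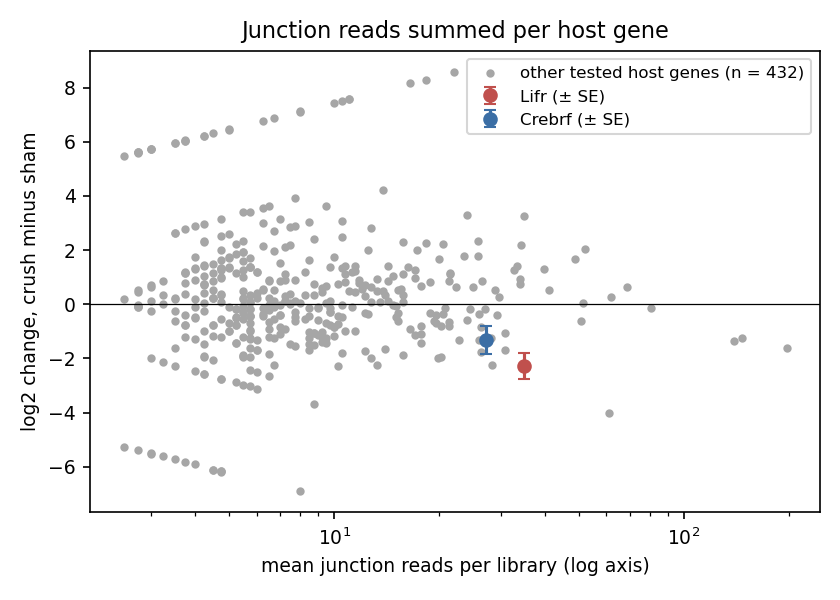
Fitted log2 change, crush minus sham (y axis), against mean junction reads per library (x axis, log scale) for the 434 host genes tested, with Lifr and Crebrf in colour and error bars of 1 SE. Lifr lies at -2.28 and Crebrf at -1.33, and the lines of points far from 0 are hosts without any listed read in crush or in sham nerve.

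The spread of Crebrf reads over its circRNAs also differed between the groups. The leading circRNA held 100% (91.2% to 100%) and 95.1% (83.5% to 99.4%) of Crebrf reads in sham against 75.0% (34.9% to 96.8%) and 35.0% (15.4% to 59.2%) in crush nerve. The interval of crush replicate 2 lay below those of the sham libraries, while that of crush replicate 1, with 8 reads, overlapped them. Among 114 hosts with at least 2 circRNAs and at least 5 reads in every library, 16.7% had a lower leading share in both crush libraries than in both sham libraries, and 21.1% a higher one. The mean share of the leading Crebrf circRNA differed by -42.6 points, crush minus sham, and 4 of the 114 hosts had a larger drop. The median difference over these hosts was -1.43 points, and that of Lifr was 2.11 points. The leading circRNA was the one with the most reads over all libraries, and Crebrf was selected for lower junction reads after crush. This shift in share is thus a description too.

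The levels of both hosts were also compared within each library. A back-splice junction is a single point, so its reads were not divided by a length. By host sums, Lifr exceeded Crebrf in sham nerve, with 71 against 40 reads and 48 against 41, and lay below it in crush nerve, with 7 against 8 and 14 against 20. Lifr held 64.0% (54.3% to 72.9%) of the reads of both hosts in sham replicate 1, and in the other libraries the interval included equal shares. By leading circRNAs, Lifr was the higher in every library, and the interval again left out equal shares in sham replicate 1 alone.

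The spans of the members lay within the usual range of exonic circRNAs. The leading Lifr and Crebrf circRNAs, at 5091 and 6078 bases, were longer than 34.2% and 39.0% of exonic circRNAs, whose median span was 8809 bases. The smallest Crebrf circRNA, at 1089 bases, was longer than 9.09% of them, and the largest, at 31069 bases, longer than 86.5%. Of 2327 host genes, 134 had at least 5 circRNAs, as Crebrf had, and the median host had 1. Of the 7 members, 6 were classed exonic, as were 3731 of the 4942 circRNAs listed.

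The hosts whose profile was most like that of Lifr were Tshz2, Stk39 and Frmd3. Likeness was the root mean square distance between mean-centred values of log2(SRPBM + 0.2) over the 4 libraries, among 434 host genes tested. Tshz2, which encodes a zinc finger transcription factor, lay at 0.223, with 36 and 29 reads in sham and 5 and 9 in crush nerve. Stk39, which encodes a kinase that acts on ion cotransporters, lay at 0.232, with 58 and 38 against 8 and 9. Frmd3, a FERM domain gene, lay at 0.238, with 12 and 7 against 0 and 0, so its distance rests on the pseudocount. All of them had more reads in sham replicate 1 than in sham replicate 2, as Lifr had. Crebrf lay at 0.453 from Lifr, in place 27 of 433.

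The hosts most like Crebrf were Lama2, Arhgap12 and Utp20. Lama2 encodes the laminin alpha chain of Schwann cell and muscle basement membranes, and its distance was 0.0691. It had 7 and 8 reads in sham and 0 and 2 in crush nerve. Arhgap12, a GTPase-activating protein gene, lay at 0.0943, with 7 and 8 against 0 and 3. Utp20, a gene of ribosome biogenesis, lay at 0.0977, with 9 and 8 against 0 and 2. These hosts had far fewer reads than Crebrf, so the closeness of their profiles rests on few reads and on the pseudocount.

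Lifr was set beside the other genes of its pathway. Of 41 other genes of LIF and gp130 cytokine signalling, 11 had a circRNA and 2 had enough reads to test. Of the tested genes, 0 passed in either direction (edgeR quasi-likelihood test, 0 at an unadjusted p under 0.05 and 0 with DESeq2), against 2.3% of all hosts tested. Their median log2 change was -0.69. Gab1, which encodes a docking protein for receptor signalling, had 9 and 7 reads in sham and 2 and 5 in crush nerve, with a log2 change of -0.96 ± 0.81 (adjusted p = 0.501, edgeR). Pias1, which encodes an inhibitor of activated STAT, had 3 and 6 reads in sham and 0 and 6 in crush nerve, with -0.41 ± 1.37 (adjusted p = 0.905, edgeR). Il6r, the gene of the interleukin-6 receptor that also signals through gp130, was chosen after its values were seen, and it had 0 and 0 reads in sham and 4 and 11 in crush nerve. It did not pass the filter on low counts. Together the 11 genes had 18 and 17 reads in sham and 18 and 31 in crush nerve, and in crush nerve Lifr, with 7 and 14, no longer exceeded that sum.

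Around Crebrf, 10 of 41 other genes of CREB3 regulation and the unfolded protein response had a circRNA, and 2 were tested. Again 0 passed in either direction (edgeR quasi-likelihood test, 0 at an unadjusted p under 0.05 and 0 with DESeq2), against 2.3% of all hosts tested, and with 2 genes tested in each list a count of 0 says little. Their median log2 change was 1.33. Canx, the gene of the chaperone calnexin, had 16 and 14 reads in sham and 12 and 21 in crush nerve, with a log2 change of 0.34 ± 0.51 (adjusted p = 0.728, edgeR). Atf6, which encodes a membrane-bound stress sensor released by the same proteases as CREB3, had 0 and 3 reads in sham and 7 and 7 in crush nerve, with 2.32 ± 1.22 (adjusted p = 0.284, edgeR). Without sham replicate 2, where all sham reads of Atf6 lay, its adjusted p was 0.0151 (edgeR), and over the 9 alternatives in which it was tested it ranged from 0.0151 to 0.619. Together the 10 genes had 18 and 20 reads in sham and 26 and 42 in crush nerve. Unlike the Crebrf sum, these reads were not fewer after crush.

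**Figure D5:**
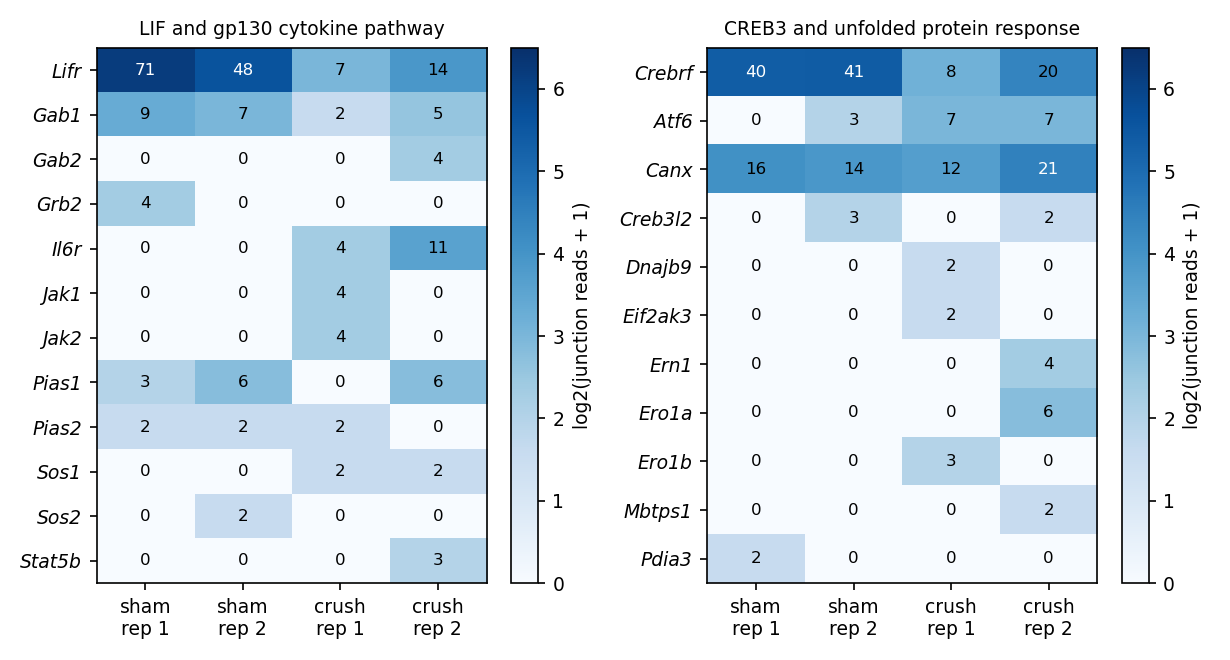
Junction reads summed per host gene (numbers in cells, colour log2 of reads plus 1) in the 2 sham and 2 crush libraries for Lifr with its 11 pathway genes and Crebrf with its 10. Lifr and Crebrf hold the highest sham values of their lists, and in the crush libraries Canx, with 12 and 21 reads, exceeds Crebrf, with 8 and 20.

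Shares of some cell type markers differed in the same contrast, and others rest on few reads. Leukocyte genes, 18 of 35 with a circRNA, took 0.0333% and 0.0458% of junction reads in sham and 1.16% and 1.21% in crush nerve. Skeletal muscle genes, 6 of 22 with a circRNA, took 2.34% and 2.74% in sham and 0.921% and 0.964% in crush nerve, nearly all from Mlip, and Ttn, Actn2 and Myh7 were listed at 0 throughout. Schwann cell genes, 4 of 23 with a circRNA, took 0.122% and 0.149% in sham and 0.0485% and 0.0443% in crush nerve, while the defining markers Sox10 and S100b had no circRNA listed. These shares were 11 and 13 reads in sham and 4 and 4 in crush nerve, where all were of Ugt8. Endothelial genes, 4 of 15, took 0.0776% to 0.126% in sham and 0.0886% to 0.0970% in crush nerve, so the groups overlapped. Fibroblast and perineurial genes, 4 of 20, took 0.0998% and 0.115% in sham and 0% and 0.0775% in crush nerve, with Pdgfra and Col1a1 at 0. Their reads numbered 9 and 10 in sham and 0 and 7 in crush nerve. Adipocyte genes, 2 of 14, took 0% to 0.0998% in sham and 0% to 0.0222% in crush nerve, with Adipoq and Plin1 at 0. This was 9 and 0 reads in sham and 0 and 2 in crush nerve. The part of these cells in the lower Lifr and Crebrf reads was not tested. In whole nerve, fewer cells of a type and less RNA per cell cannot be told apart.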

How the data were processed

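The files give, for each of 4 libraries, circRNA positions in Rnor_6.0, a class and a host gene. Per the file headers, the authors deposited raw back-splice junction read counts, with a second column, SRPBM, a signal equal to the count times 1 constant per library (0.0725 and 0.0598 for crush, 0.0729 and 0.0786 for sham replicates 1 and 2). The submitters' processing notes name CASAVA 1.8, BWA and edgeR without their roles, with the circRNA caller not given in the sources used here. The deposited genomic length is end minus start.

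Counts were summed per Ensembl host gene, leaving out 3 circRNAs with 2 hosts. Features with at least 5 reads in at least 2 libraries were fitted with edgeR 4.0.16 (quasi-likelihood, TMM, library sizes of the tested features, two-sided, Benjamini-Hochberg, threshold 0.05) in R 4.3.3. DESeq2 1.42.0 was an alternative. Standard errors are the log2 change over the root of the F statistic. The fits were tested on simulated data. Of host symbols, 2174 were current in the RefSeq table of GRCr8, 99 matched by synonym and the rest were kept.

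The members and the lists were chosen with earlier results of these data known. Genes named are the members, tested list members, the 3 hosts nearest each member in profile and some cell type markers. Il6r, which was not tested, was added after its values were seen. P-values reflect only how these samples vary, and that variation may be technical.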

Additional observations from a re-analysis of the deposited data

How the results depend on the processing

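The lower reads of Lifr and Crebrf kept their direction under the 11 alternatives reported for each host sum. Both hosts were chosen for this direction, so refits of the same counts are no separate support for it. The log2 change of Lifr was -2.71 with library totals from the SRPBM values, where the median of all hosts moved from 0.12 to -0.30, and -2.62 to -1.80 with 1 library left out. That of Crebrf was -1.88 to -0.74 with 1 library left out. The number of host genes called was far less stable than either change. It was 10 in the reported fit, 32 with DESeq2, 39 with no filter on low counts, 44 with a minimum of 10 reads in place of 5, 0 with a minimum of 2 (edgeR, 293 at an unadjusted p under 0.05), 0 with library sizes over all junction reads (edgeR, 108, an alternative added after seeing the data), and 0 to 84 with 1 library left out (0 without crush replicate 2, where 80 had an unadjusted p under 0.05, and 84 without sham replicate 2). The number of circRNAs called was 51, against 30 with DESeq2, 23 with a minimum of 10 reads, 0 with a minimum of 2 (edgeR, 434 at an unadjusted p under 0.05), and 6 (without either crush replicate) to 76 (without sham replicate 1) with 1 library left out. With SRPBM totals 52.5% of the called circRNAs were higher, against 62.7%, and 57.1% of the called hosts, against 80.0%. The causes were not tested. The list around Crebrf had 0 to 1 genes called with 1 library left out. Leaving out 1 library of a group put the share of the leading circRNA at 35.0% to 75.0% for Crebrf in crush, 95.1% to 100% for Crebrf and 95.8% to 100% for Lifr in sham. Deviations of crush and sham libraries with the same replicate number had a correlation of -0.0555 over hosts and -0.111 over circRNAs. With few reads per feature, these values cannot tell whether replicate numbers pair the libraries. With the replicate block, the log2 change was -2.31 for Lifr and -1.43 for Crebrf, 24 hosts were called and 0 circRNAs (edgeR, 53 at an unadjusted p under 0.05). With the replicate block and numbers crossed, 0 hosts (edgeR, 46 at an unadjusted p under 0.05) and 0 circRNAs (62) were called. The changes of the host sums are not reported for this alternative. Those of the leading circRNAs were -2.28 for Lifr and -2.37 for Crebrf.

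With 8250 to 9027 junction reads per library, a circRNA under 5 reads, as all minor members but 1 were, has no usable change.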
